A study of Bos taurus with 52 samples.

Results

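The endometrium, the lining of the uterus, was compared between non-pregnant heifers classed as subfertile (NP-SF, 5 animals) and non-pregnant heifers classed as high fertile (NP-HF, 5 animals). The comparison rests on the 10 libraries that carry these labels, out of 25 endometrium libraries and 52 libraries in the series, and on all 19606 genes that passed a filter on low counts. Each library is 1 animal of Bos taurus, and the labels give no treatment for any of them. A heifer is a cow that has not yet calved. The series also holds endometrium of infertile non-pregnant heifers (NP-IF, 5 animals) and of high-fertile and subfertile heifers at day 17 of pregnancy (P-HF and P-SF, 5 animals each), as well as conceptuses, which were not used here. The sources used here do not give how an animal came into its fertility class, the cycle day of the non-pregnant endometrium, or the breed. The classes are therefore taken as the submitters label them, and cycle stage could not be compared between them.

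The endometrium is made of a luminal and glandular epithelium over a stroma with vessels and immune cells. Ovarian estrogen and progesterone set which genes it uses through the cycle. In ruminants oxytocin acts on the oxytocin receptor of the epithelium late in the cycle and releases pulses of prostaglandin F2 alpha, which end the corpus luteum. The surface epithelium carries membrane mucins, and the glands secrete peptides, protease inhibitors and defence proteins into the lumen that a conceptus would meet. A day 17 conceptus secretes interferon tau, which holds the oxytocin receptor down and turns on interferon-stimulated genes.

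The 10 libraries held 20350807 to 25729368 reads assigned to genes, with 23599 to 24229 genes detected and 3.06% to 4.54% of the reads on the leading 10 genes. All levels below are read counts scaled to a common library size (CPM). The tissue label was checked against defining markers. EPCAM, of epithelium, lay between 397 and 594 CPM, COL3A1 and DCN, of stroma, between 4589 and 11315 and between 2351 and 3743 CPM, and HOXA10 between 63.2 and 116 CPM. The markers of vessels (PECAM1, 46.2 to 63.9 CPM), smooth muscle (MYH11, 47.1 to 124 CPM) and leukocytes (PTPRC, 25.0 to 57.0 CPM) were present in each library. FOXJ1, of ciliated cells, varied most, from 16.2 to 113 CPM. The red cell gene HBB was at 0 in 8 of the 10 libraries and the fat cell gene ADIPOQ never passed 0.09 CPM. UPK3B, of mesothelium, lay between 3.19 and 7.29 CPM and OVGP1, of the oviduct, between 5.95 and 12.3 CPM. Both had reads in each library. The 9 listed red cell genes summed to 11.5 to 15.8 CPM in NP-HF and 12.8 to 19.1 CPM in NP-SF.

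No gene was called between NP-SF and NP-HF: 0 of 19606 genes (0%) reached an adjusted p under 0.05 in edgeR (quasi-likelihood test, Benjamini-Hochberg adjustment), and the smallest adjusted p was 0.777. A further 709 genes (3.62%) had an unadjusted p under 0.05, 283 of them higher (1.44%) and 426 lower (2.17%) in NP-SF. DESeq2, another count test, called 4 genes, and limma-voom called 0 with 671 at an unadjusted p under 0.05. The 4 genes of DESeq2 were the oxytocin receptor gene OXTR, the protease gene MMP7 and the unnamed loci LOC617154 and LOC785803, all lower in NP-SF. The 5 NP-SF libraries all lay above the 5 NP-HF libraries in 36 genes (0.184%) and all below them in 59 (0.301%). Among 19606 genes some are apart in this way without any class difference, so full separation is given below as a description and no test. Because no gene was called by edgeR, single genes are described by their levels in each animal. Counts of list members at an unadjusted p under 0.05 are to be read beside the shares over all genes given above. Genes of a list are not independent of each other, so such counts are no test.

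The data also bound how large a difference could be. Log2 fold changes of NP-SF over NP-HF had a median of -0.004 over all tested genes, and their 5th and 95th percentiles were -0.48 and 0.42, with 48.8% of genes positive and 51.2% negative. The 95% interval lay within 1 log2 unit of 0, that is within 2-fold in either direction, for 15564 genes (79.4%). For 13634 genes the higher of the 2 group means reached 5 CPM, and 12887 of these (94.5%) had such an interval. A fold change of at least 2 was fitted for 391 genes (1.99%).

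The animals of a class differed among themselves about as much as between classes. Correlation of log2 levels had a median of 0.967 over the 10 pairs of NP-HF libraries, 0.973 over the 10 pairs of NP-SF libraries and 0.970 over the 25 pairs that cross classes. The common biological coefficient of variation, the spread of true levels between animals that edgeR estimates, was 0.274 in NP-HF and 0.238 in NP-SF. NP-HF was the more dispersed group on the first principal component, where its libraries ran from -47.4 to 36.9 and those of NP-SF from -31.9 to 19.7. On the second component NP-HF 2 stood at 53.8. Genes were also picked for small p or large fold. Of 16 picked among those lower in NP-SF, NP-HF 2 was the highest library in 8 and NP-HF 3 in 6. Of 18 picked among those higher in NP-SF, NP-HF 2 was the lowest library in 13 and NP-HF 3 in 2. The picks required most pairs of libraries to be ordered, so the extreme library was likely to be an NP-HF one.

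**Figure D1:**
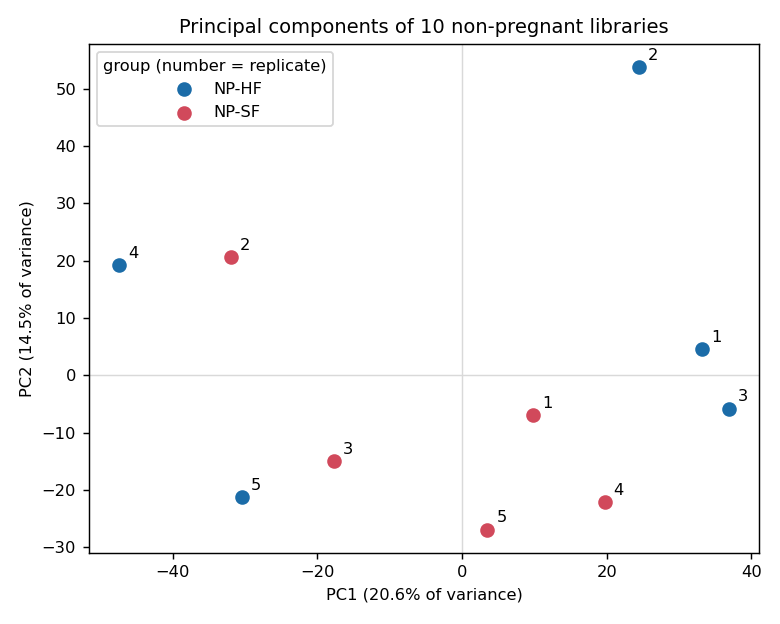
Principal components of the 10 non-pregnant libraries, computed on log2 CPM of the tested genes. Each point is 1 animal, labelled by its replicate number, and the axes give the first component (20.6% of the variance) and the second (14.5%). The classes overlap along the first axis, and NP-HF 2 stands alone at the top of the second.

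OXTR, the oxytocin receptor, had the smallest p of all tested genes. It was at 39.2, 103, 54.6, 34.5 and 11.4 CPM in NP-HF 1 to 5 and at 6.28, 9.80, 8.75, 17.8 and 3.87 CPM in NP-SF 1 to 5. NP-HF 2 was the highest animal, and the groups overlapped through NP-HF 5 alone, which lay below NP-SF 4: 24 of 25 pairs were ordered. The mean was 48.5 ± 34.01 CPM (SD, n = 5) in NP-HF and 9.30 ± 5.28 CPM (SD, n = 5) in NP-SF, and the log2 fold change was -2.38 ± 0.49 (SE, 95% interval -3.39 to -1.37, adjusted p = 0.777 in edgeR). DESeq2 gave an adjusted p of 0.0298, and over all 21 alternatives the adjusted p ran from 0.0298 to 1. Without NP-HF 2 the log2 fold change was -1.91. Since the tissue was measured in bulk, fewer cells that use a gene and less RNA per cell cannot be told apart, here and below.

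The ovarian steroid receptors, which control OXTR in the cycling uterus, did not show a gap of that size. ESR1, the main estrogen receptor of the uterus, was at 7.25 to 10.6 CPM in NP-HF and 5.20 to 10.9 CPM in NP-SF, and its log2 fold change of -0.02 ± 0.19 had an interval of -0.41 to 0.37. PGR, the progesterone receptor, was at 4.95 to 8.76 and 4.12 to 7.36 CPM, with -0.17 ± 0.26 and an interval of -0.70 to 0.37. ESR1 and PGR were named after their values had been seen.

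Among 16 tested receptors for hormones and interferon, 14 had a negative and 2 a positive log2 fold change. Their median was -0.16 beside -0.004 over all genes. With single libraries left out it ran from -0.21 (without NP-HF 1) to -0.08 (without NP-HF 5). At an unadjusted p under 0.05, beside 2.17% of all tested genes, 3 of the receptors were lower. OXTR was 1 of these 3 and IFNAR2 another, a subunit of the receptor through which interferon tau acts, at -0.25 ± 0.12, and IFNAR1, its partner, was at -0.18 ± 0.12. For 12 of the 16 the interval stayed within 1 log2 unit of 0. The enzymes, carriers and receptors of prostaglandins with the glucocorticoid enzymes, which act after oxytocin in the luteolytic path or beside it, had 10 positive and 17 negative values with a median of -0.08. None of these 27 genes had an unadjusted p under 0.05. PTGS2, the inducible prostaglandin synthase, was at -0.28 ± 0.24, PTGIS, the prostacyclin synthase, at -0.31 ± 0.17, and PTGER2, a prostaglandin E receptor, at -0.39 ± 0.21.

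**Figure D2:**
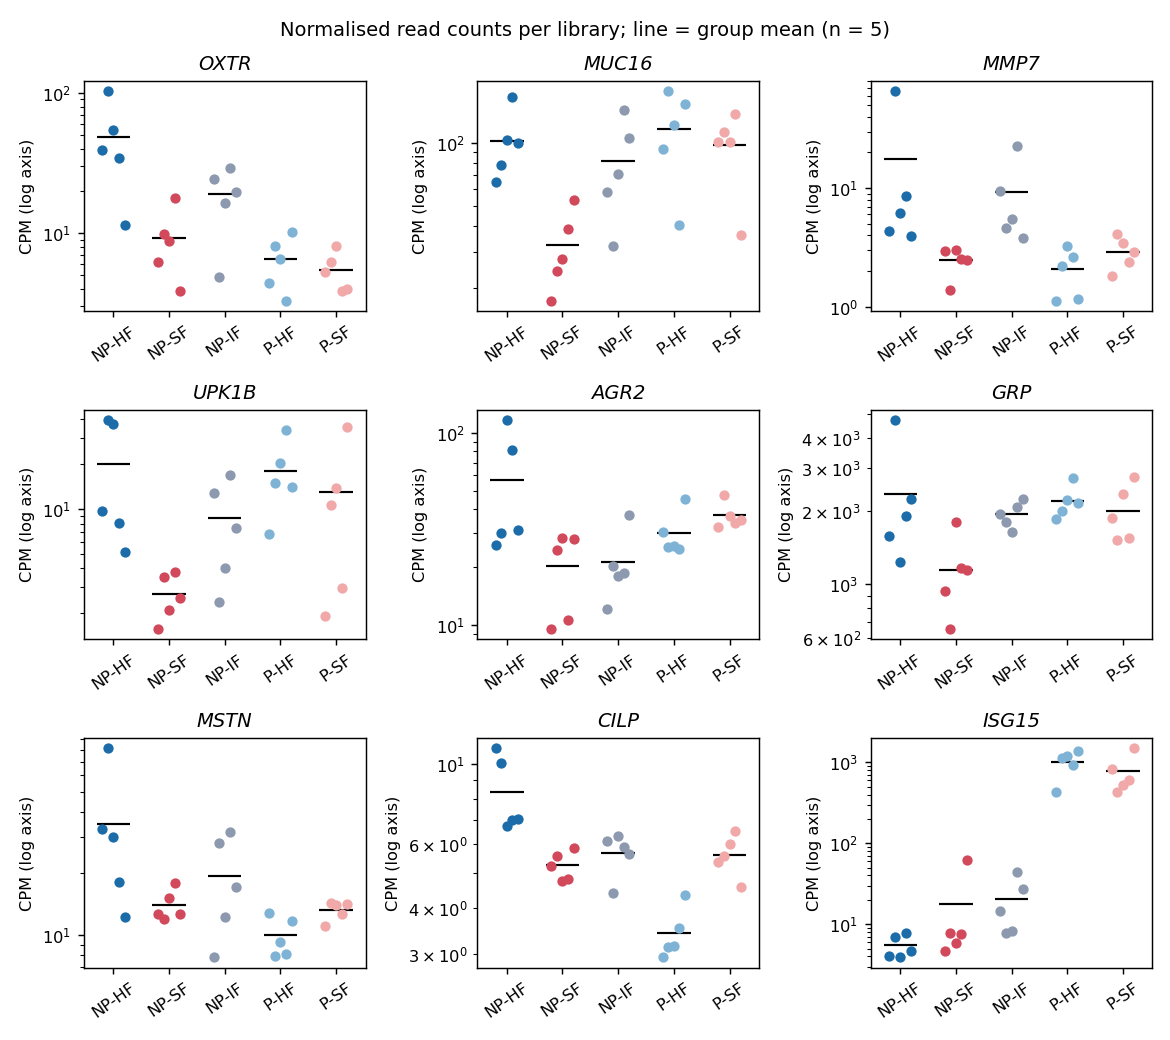
CPM of 9 named genes on a log axis in the 5 endometrial groups, with 1 point per animal and a line at the group mean (n = 5). The 5 NP-SF animals lie below the 5 NP-HF animals in MUC16, MMP7, UPK1B and CILP, and the single high NP-SF point in ISG15 is NP-SF 5.

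MUC16, a large membrane mucin of the uterine surface, was at 64.9, 78.4, 103, 166 and 99.8 CPM in NP-HF 1 to 5 and at 17.5, 24.3, 27.7, 38.6 and 53.3 CPM in NP-SF 1 to 5. Every NP-SF animal lay below every NP-HF animal, and no single library carried the gap: the log2 fold change of -1.67 ± 0.41 (95% interval -2.52 to -0.82) stayed between -1.92 and -1.42 when each library was left out in turn. UPK1B, a tetraspanin first known from the surface of the bladder lining, was at 9.77, 39.7, 37.0, 8.09 and 5.14 CPM and 1.57, 3.497, 2.11, 3.80 and 2.51 CPM. The groups did not overlap, NP-HF 2 and NP-HF 3 were the highest, and the log2 fold change was -2.88 ± 0.72 (-2.48 without NP-HF 2).

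MMP7, a metalloproteinase made by glandular epithelium, was at 4.33, 65.3, 6.20, 8.66 and 3.97 CPM in NP-HF and 2.96, 1.38, 3.03, 2.52 and 2.47 CPM in NP-SF. The groups did not overlap, but 1 animal carried most of the fold: NP-HF 2 stood far above the others, and the log2 fold change of -2.83 ± 0.66 was -1.22 without it. DESeq2 gave MMP7 an adjusted p of 0.0478, and the adjusted p over the alternatives ran from 0.0478 to 1.

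Of the 11 tested mucins and mucin-modifying enzymes 8 had a negative log2 fold change, with a median of -0.50. At an unadjusted p under 0.05, beside 2.17% of all tested genes, 2 were lower. Those were MUC16 and GCNT3, an enzyme that branches mucin glycans, at -1.19 ± 0.44. MUC1, the main membrane mucin of the bovine uterine surface, was at -0.54 ± 0.32, MUC13 at -0.47 ± 0.31, MUC20 at -0.50 ± 0.40 and the gel-forming MUC5B at -1.13 ± 0.63. None of these 4 passed an unadjusted p of 0.05. Single animals moved them: without NP-HF 3 GCNT3 was at -0.51 and MUC5B at -0.11, and MUC1 was at -0.32 without NP-HF 2 and -0.83 without NP-SF 3. MUC13 was at -0.31 without NP-HF 2 and -0.27 without NP-SF 4, and MUC20 at -0.31 without NP-HF 5. MUC4 (0.48), CD24 (0.10) and ST3GAL1 (0.03) were positive, and 2 of the 11 intervals stayed within 1 log2 unit of 0. Without NP-HF 2 the median of the list was -0.33.

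AGR2, an enzyme of the secretory path that mucin cells need, was at 25.97, 30.0, 117, 81.2 and 31.3 CPM in NP-HF and 9.55, 24.7, 28.3, 10.6 and 28.2 CPM in NP-SF, with NP-HF 3 and NP-HF 4 high and NP-SF 1 and NP-SF 4 low. Its log2 fold change was -1.49 ± 0.39, and -1.05 without NP-HF 3. TFF3, a trefoil peptide released with mucus, was at 8.66, 14.98, 43.2, 4.48 and 2.803 and 3.77, 3.68, 3.99, 7.43 and 3.34 CPM. WFDC2, a small secreted protein of the protease inhibitor family of whey proteins, was at 27.3, 80.1, 277, 75.5 and 64.6 and 26.6, 34.6, 45.2, 38.2 and 55.8 CPM. In both, NP-HF 3 was the highest animal by a wide margin and the groups overlapped, and the log2 fold changes of -1.74 ± 0.57 and -1.39 ± 0.43 were -0.80 and -0.63 without it. GCNT3 followed the same animal, at 9.65, 20.6, 38.5, 3.999 and 4.20 CPM against 6.10, 9.11, 4.45, 7.43 and 6.77 CPM.

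Of 24 tested keratins, junction proteins and epithelial regulators, 9 were positive and 15 negative with a median of -0.02, and EPCAM lay between 493 and 576 CPM in NP-HF and between 397 and 594 CPM in NP-SF. The member at an unadjusted p under 0.05 was CLDN10, a tight junction protein, at 16.9, 31.4, 21.1, 20.7 and 9.86 CPM in NP-HF and 7.49, 7.55, 6.06, 23.8 and 6.09 CPM in NP-SF. NP-SF 4 stood with the NP-HF animals and the other 4 NP-SF animals below all of them, so that the log2 fold change of -0.97 ± 0.39 was -1.56 without NP-SF 4. Ciliated cell genes had a median of -0.10 over 21 members, none at an unadjusted p under 0.05. The sign of this median turned with 1 library: it was 0.20 with 18 of 21 positive without NP-HF 1, and -0.31 with 0 of 21 positive without NP-HF 4. It was 0.07 in limma-voom. Their summed level ran from 268 to 1317 CPM in NP-HF and from 406 to 1038 CPM in NP-SF.

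DMBT1, a mucosal glycoprotein that binds bacteria, was at 2.43, 46.4, 233, 5.90 and 5.09 CPM in NP-HF and 0, 8.74, 1.57, 0.683 and 2.804 CPM in NP-SF. SAA2, a serum amyloid A protein of the acute phase, was at 0.206, 22.8, 1.82, 3.71 and 1.31 and 0.538, 0.0920, 0.384, 0.128 and 0.290 CPM, and M-SAA3.2, the serum amyloid A form first known from mammary tissue, at 34.9, 689.7, 97.1, 98.98 and 41.2 and 22.3, 21.3, 41.5, 20.2 and 48.0 CPM. NP-HF 3 and NP-HF 2 led in DMBT1, NP-HF 2 led in both serum amyloid genes, and the groups overlapped in all 3. Their log2 fold changes were -4.42 ± 1.48, -4.35 ± 1.25 and -2.65 ± 0.85. Without the leading animal they were -2.45, -2.59 and -1.15.

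PI3, an elastase inhibitor of mucosal surfaces, was at 3.75, 2.36, 40.9, 1.24 and 1.78 CPM in NP-HF and 1.34, 1.93, 0.499, 1.84 and 0.290 CPM in NP-SF. Only NP-HF 3 stood out, and the log2 fold change of -3.08 ± 0.88 was -0.95 without it. CFB, factor B of the alternative complement pathway, was at 4.66, 18.6, 61.5, 21.8 and 9.06 and 2.64, 10.998, 5.03, 5.25 and 7.69 CPM, again highest in NP-HF 3, with -1.87 ± 0.56, and -1.10 without that animal. The 19 tested complement genes had a median of -0.10, and CFB was the 1 member at an unadjusted p under 0.05. The chemokines that met that threshold were at very low levels, CXCL13 (-2.66 ± 0.83, at most 3.504 CPM) and CCL20 (-1.98 ± 0.76, at most 3.64 CPM). Without NP-HF 1 CXCL13 was at -1.59, and without NP-HF 3 CCL20 was at -0.96. The 28 tested chemokines and cytokines had 12 positive and 16 negative values with a median of -0.06.

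**Figure D3:**
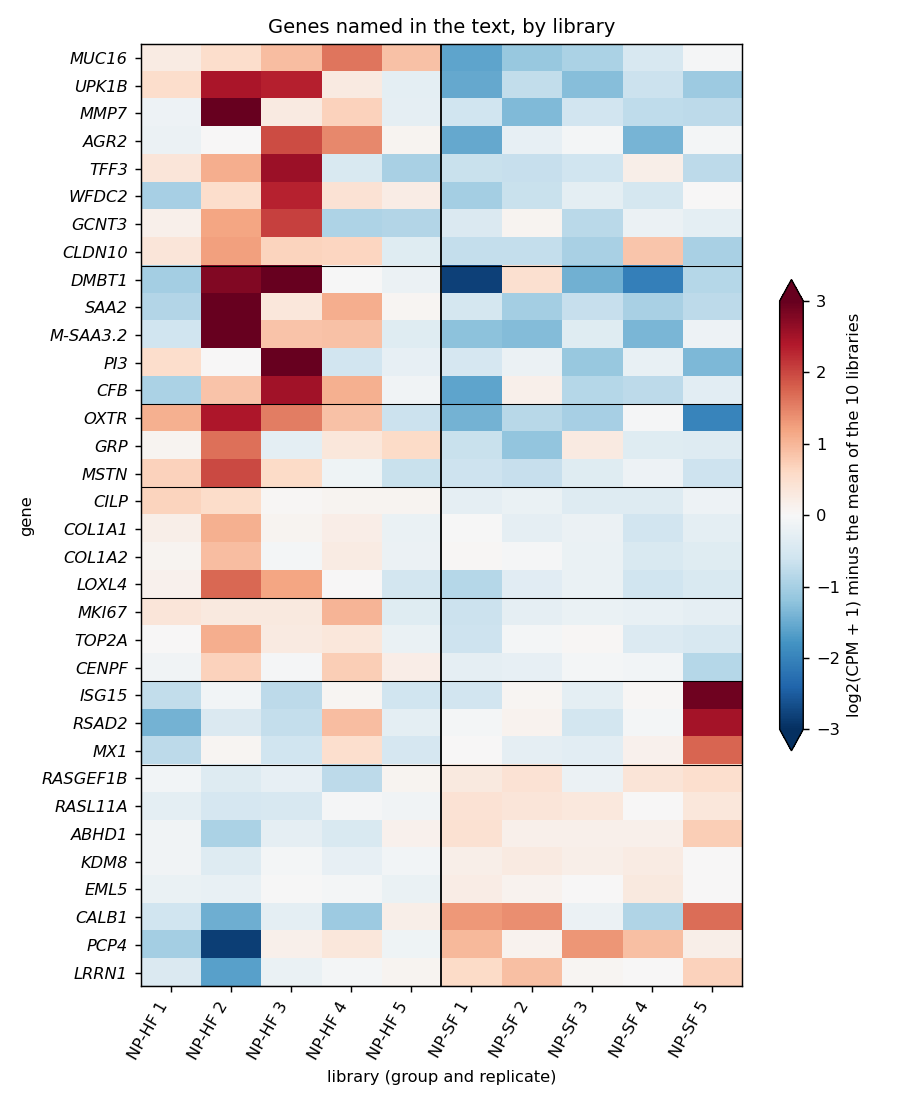
Level of 34 named genes in each of the 10 libraries, as log2(CPM + 1) minus the mean of the 10, with colour limits at -3 and 3. Rows are grouped as in the text from surface genes at the top to genes higher in NP-SF at the bottom. The darkest cells of the upper rows belong to NP-HF 2 and NP-HF 3, and those of the interferon-stimulated rows to NP-SF 5.

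The secreted proteins of the uterus held 6 members lower and 0 higher at an unadjusted p under 0.05 among 29 tested. Over all tested genes the shares were 2.17% and 1.44%. Of the 29 members 20 were negative with a median of -0.12. That median was -0.06 without NP-HF 4 and -0.23 without NP-SF 4. AGR2, TFF3 and WFDC2 are 3 of these 6. GRP, gastrin-releasing peptide, a peptide hormone of the glands, was at 1585, 4722, 1236, 1909 and 2239 CPM in NP-HF and 943, 656, 1799, 1163 and 1149 CPM in NP-SF. NP-SF 3 lay among the NP-HF animals and the other 4 NP-SF animals below them all, with a log2 fold change of -1.03 ± 0.28, and of -0.61 without NP-HF 2, the highest animal. SERPINA14, the uterine milk protein, a serpin of ruminant uterine fluid, was at 3.13, 71.4, 1.94, 29.9 and 31.1 and 3.54, 8.24, 10.6, 3.16 and 9.67 CPM, and the antimicrobial iron-binding LTF at 12.8, 21.6, 448, 28.2 and 22.1 and 10.0, 11.4, 14.2, 27.8 and 24.6 CPM. Both varied more than 10-fold among NP-HF animals and overlapped between groups, with log2 fold changes of -1.96 ± 0.76 and -2.60 ± 0.98. NP-HF 3 was far above all others in LTF, and without it the value was -0.27. SERPINA14 was at -1.22 without NP-HF 2. These last 2 were named after their values had been seen, to complete the 6.

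MSTN, myostatin, a growth factor of the transforming growth factor beta family, was at 33.0, 81.2, 30.1, 18.1 and 12.2 CPM in NP-HF and 12.6, 11.96, 15.2, 17.9 and 12.7 CPM in NP-SF. The NP-SF animals lay in a narrow band, NP-HF 5 lay within it and NP-HF 2 far above it. Its log2 fold change was -1.31 ± 0.37, and -0.73 without NP-HF 2. MSTN was the 1 member of 39 tested growth factors and binding proteins at an unadjusted p under 0.05, and the list as a whole had 23 positive and 16 negative values with a median of 0.04. For 25 growth factor receptors the median was 0.02, none passed that threshold, and 24 intervals stayed within 1 log2 unit of 0. Among 22 WNT ligands, antagonists and partners 18 were negative, with a median of -0.16. WNT7A, a ligand of the uterine epithelium, was at -1.52 ± 0.63 but below 1 CPM in each of the 10 libraries, and RSPO1, which amplifies WNT signals, was at 1.21 ± 0.52, and at 0.68 without NP-SF 5.

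CILP, a matrix protein of cartilage and connective tissue, was at 11.01, 10.0, 6.74, 6.998 and 7.05 CPM in NP-HF and 5.24, 5.57, 4.76, 4.82 and 5.85 CPM in NP-SF. The groups did not overlap, the NP-SF animals were tightly placed, and the log2 fold change of -0.67 ± 0.16 (95% interval -0.99 to -0.35) stayed between -0.74 and -0.55 when each library was left out. LOXL4, an enzyme that cross-links collagen, was at 3.17, 11.68, 7.73, 2.86 and 1.63 CPM and 1.12, 2.02, 2.34, 1.54 and 1.79 CPM, with NP-HF 2 and NP-HF 3 highest and NP-HF 5 within the NP-SF range. Its log2 fold change was -1.62 ± 0.40, and -1.13 without NP-HF 2.

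COL1A1, the alpha 1 chain of type I collagen, was at 1530.1, 2853, 1434, 1571 and 1187 CPM in NP-HF and 1338, 1136, 1205, 907 and 1107 CPM in NP-SF. NP-HF 2 was again the highest, and -0.59 ± 0.24 became -0.33 without it. COL1A2, its partner chain, was at -0.45 ± 0.22 and COL3A1, of type III collagen, at -0.27 ± 0.24, and without NP-HF 2 they were at -0.22 and -0.03. The 18 stromal genes had 15 negative values with a median of -0.08 and 1 member, COL1A1, at an unadjusted p under 0.05. Without NP-HF 2 their median was 0.04. The summed level of the stromal list was 30349 CPM in NP-HF 2 and 13815 to 20927 CPM in the other 9 libraries, a sum that includes the collagens themselves. The highest level of DCN, another stromal marker, was in an NP-SF library (3743 CPM, against at most 3682 CPM in NP-HF). What part the stromal genes have in the other high genes of NP-HF 2 was not tested.

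Of 43 tested matrix and adhesion genes 26 were negative, with a median of -0.08, 2 lower and 1 higher at an unadjusted p under 0.05. The lower ones were CILP and ASPN, a small proteoglycan, at -0.69 ± 0.30, which was -0.12 without NP-HF 2. The higher one was ADAMTS1, a protease that cuts proteoglycans, at 0.43 ± 0.19, which was 0.21 without NP-SF 2. At that threshold, beside 2.17% of all tested genes, retinoic acid handling had 3 members lower among 16. They were the retinoic acid carriers CRABP1 (-1.78 ± 0.68) and CRABP2 (-0.78 ± 0.31) and RARRES1, a retinoic acid responsive gene (-0.58 ± 0.24). Without NP-HF 2 CRABP2 was at -0.49 and RARRES1 at -0.21. CRABP1 was high in NP-HF 3 alone and was at -0.11 without it, and CRABP2 was at 21.8, 29.5, 13.53, 13.0 and 8.45 CPM in NP-HF and 10.2, 6.81, 9.02, 10.1 and 14.4 CPM in NP-SF. CYP26A1, which degrades retinoic acid, was on the other side at 1.47 ± 0.75, with 3 NP-SF animals above 50 CPM and 2 below 10 CPM. It did not pass an unadjusted p of 0.05. Its log2 fold change was 2.11 without NP-HF 5 and 1.17 without NP-SF 2.

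MKI67, the Ki-67 antigen of dividing cells, was at 4.04, 3.82, 3.85, 6.998 and 2.06 CPM in NP-HF and 1.52, 2.25, 2.42, 2.39 and 2.27 CPM in NP-SF. NP-HF 4 was the highest and NP-HF 5 lay within the NP-SF range, and the log2 fold change was -0.93 ± 0.37. The replication enzyme TOP2A (-0.80 ± 0.31), the kinetochore gene CENPF (-0.85 ± 0.30) and the checkpoint kinase BUB1B (-0.82 ± 0.34) gave values like it. Single animals moved these too: TOP2A was at -0.50 without NP-HF 2. Without NP-HF 4 MKI67 was at -0.66, CENPF at -0.69 and BUB1B at -0.61. In the cell cycle list 4 of 33 genes were lower and 1 higher at an unadjusted p under 0.05, beside 2.17% and 1.44% of all tested genes. Of the 33 members 28 were negative with a median of -0.18. Without NP-HF 2 the median was -0.10.

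All 13 tested genes of MHC class II, which present peptides to helper T cells, were negative with a median of -0.23, yet none had an unadjusted p under 0.05, and without NP-HF 4 the median was -0.07 with 6 positive and 7 negative. Without NP-SF 3 it was -0.48. BOLA-DRA, the most conserved chain, was at 182, 239.8, 168, 313 and 186 CPM in NP-HF and 167, 169, 222, 165 and 124 CPM in NP-SF, highest in NP-HF 4, with a log2 fold change of -0.36 ± 0.18, and -0.19 without that animal. BOLA-DQA2, for which the assignment of reads among close copies is uncertain, ran from 3.53 to 57.7 CPM in NP-HF and from 0.299 to 32.4 CPM in NP-SF. For 23 lymphocyte genes the median was -0.17, and it was 0.01 without NP-HF 4 and -0.07 without NP-SF 3. The 2 members at an unadjusted p under 0.05 were GZMA, a granule protease of cytotoxic cells (-1.06 ± 0.48, and -0.98 without NP-HF 4), and PTPRC, the pan-leukocyte antigen, at 37.1, 32.6, 36.3, 57.0 and 38.0 CPM in NP-HF and 25.0, 37.3, 27.6, 40.3 and 30.0 CPM in NP-SF. PTPRC was at -0.33 ± 0.15, and at -0.17 without NP-HF 4. IGJ, the joining chain of secreted antibodies, was at 737, 114, 264, 1265 and 221 CPM and 42.2, 609, 23.8, 25.7 and 70.0 CPM: NP-SF 2 stood among the NP-HF animals and the other 4 NP-SF animals below them all. Its log2 fold change of -1.76 ± 0.96 was -1.12 without NP-HF 4 and -3.69 without NP-SF 2. For 20 genes of macrophages, mast cells and neutrophils the median was -0.22, and -0.07 without NP-HF 4.

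Interferon-stimulated genes depended most on 1 NP-SF animal. Of 61 tested members 49 were positive, with a median of 0.18. Without NP-SF 5 there were 29 positive and 32 negative with a median of -0.02. Without NP-HF 4 there were 53 positive with a median of 0.32. With both NP-SF 5 and NP-HF 4 left out, 42 were positive and 19 negative, with a median of 0.08. ISG15, a ubiquitin-like modifier, was at 4.04, 7.02, 3.89, 7.76 and 4.62 CPM in NP-HF and 4.66, 7.82, 5.91, 7.64 and 62.5 CPM in NP-SF. RSAD2, an antiviral enzyme, was at 6.76, 14.3, 11.5, 37.9 and 15.9 CPM and 19.0, 21.1, 13.1, 18.7 and 116 CPM, and MX1, an antiviral GTPase, at 74.0, 133, 83.2, 182 and 90.1 CPM and 128, 105, 102, 140.5 and 431 CPM. NP-SF 5 was the highest of the 10 in all 3, and the other 4 NP-SF animals lay within the NP-HF range in RSAD2 and MX1 and within or just above it in ISG15. Their log2 fold changes of 1.69 ± 0.64, 1.12 ± 0.59 and 0.69 ± 0.40 were 0.26, 0.06 and 0.08 without it.

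In pregnant animals ISG15 was at 432 to 1378 CPM in P-HF and 431 to 1483 CPM in P-SF. Of 17 trophoblast genes in the table, 11 had at most 5 reads in each of the 10 libraries. The 6 with more in some library were IFNT2, SSLP1 (126 to 674 reads), PAG1 (22 to 55), ELF5 (8 to 81), CDX2 (0 to 8) and ASCL2 (1 to 16). IFNT2, of the interferon tau family, had 63, 65, 58, 66 and 59 reads in NP-HF and 49, 25, 73, 59 and 58 reads in NP-SF 1 to 5. Reads of close family members can be assigned to IFNT2, and its level here is given only as measured. The cause of the high interferon-stimulated genes in NP-SF 5 was not tested. MHC class I and antigen processing genes, which interferon also raises, had a median of -0.00 over 18 members with none at an unadjusted p under 0.05. That median compares the groups and does not give the level in NP-SF 5 alone.

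RASGEF1B, an exchange factor for small GTPases, had the smallest p among the genes with a symbol that were higher in NP-SF. It was at 59.4, 47.4, 52.4, 36.2 and 66.0 CPM in NP-HF and 76.8, 84.7, 55.4, 83.0 and 89.0 CPM in NP-SF, with a log2 fold change of 0.57 ± 0.16. NP-SF 3 alone lay within the NP-HF range. RASL11A, a small GTPase-like protein, was at 16.5, 14.1, 14.4, 20.1 and 18.9 and 28.1, 26.6, 25.7, 20.6 and 26.5 CPM (0.60 ± 0.20), and ABHD1, of the hydrolase fold family, at 27.7, 14.8, 24.3, 21.2 and 32.7 and 41.2, 33.3, 33.0, 33.0 and 49.8 CPM (0.66 ± 0.22). All 5 NP-SF animals lay above all 5 NP-HF animals in both.

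The groups were apart in the same way in KDM8, a Jumonji domain hydroxylase (0.39 ± 0.12), and in EML5, a microtubule-binding protein (0.28 ± 0.10). KDM8 was at 6.31 to 8.23 CPM in NP-HF and 8.75 to 10.6 CPM in NP-SF, and EML5 at 51.5 to 60.6 and 61.0 to 75.0 CPM, and the NP-SF means were 1.31 and 1.21 times those of NP-HF. IAH1, an esterase (0.28 ± 0.08), FAM13C (0.45 ± 0.14), the complement chain C8G (0.35 ± 0.11) and the vascular connexin GJA4 (0.58 ± 0.18) overlapped by 1 to 3 of 25 pairs.

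CALB1, the calcium buffer calbindin, was at 6.14, 2.92, 7.86, 4.14 and 11.3 CPM in NP-HF and 25.7, 27.7, 8.67, 4.78 and 33.8 CPM in NP-SF (1.64 ± 0.62), with NP-SF 1, NP-SF 2 and NP-SF 5 high and the other 2 within the NP-HF range. PCP4, a regulator of calmodulin, was at 11.9, 2.68, 28.0, 31.8 and 22.8 and 49.7, 26.7, 64.1, 47.1 and 28.1 CPM (1.15 ± 0.47), and LRRN1, a leucine-rich membrane protein, at 54.9, 23.6, 65.4, 72.0 and 79.1 and 113, 139.9, 78.6, 75.2 and 123 CPM (0.84 ± 0.31). NP-HF 2 was the lowest in both, and the log2 fold changes were 0.87 and 0.64 without it. ACOX3, a peroxisomal oxidase of branched fatty acids, was at 57.8, 138, 50.05, 73.0 and 53.1 and 139.5, 147, 142, 118 and 60.6 CPM (0.71 ± 0.30), where NP-HF 2 lay with the high NP-SF animals.

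Clock genes gave 2 members higher at an unadjusted p under 0.05 among 15, beside 1.44% of all tested genes. These members were the repressors PER2 (0.53 ± 0.22) and CRY1 (0.42 ± 0.19), and the sources used here give no hour of sampling. PER2 was at 10.7, 8.67, 8.35, 10.9 and 12.7 CPM in NP-HF and 22.7, 18.4, 10.97, 12.6 and 9.38 CPM in NP-SF, so that NP-SF 1 and NP-SF 2 stood out, and it was at 0.32 without NP-SF 1. All 15 intervals of the clock list stayed within 1 log2 unit of 0. Smooth muscle genes were positive in 11 of 12 with a median of 0.31 and none at an unadjusted p under 0.05. Their summed level was 796 to 1329 CPM in NP-HF and 949 to 1595 CPM in NP-SF, and the median was 0.13 without NP-SF 3. Endothelial genes were positive in 15 of 17 with a median of 0.23, which was 0.11 without NP-SF 4, and again none passed that threshold.

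All 17 tested genes of the endoplasmic reticulum stress response had intervals within 1 log2 unit of 0, as had 25 of 26 genes of glycolysis and the citric acid cycle, 35 of 39 of lipid metabolism and 19 of 20 of uterine transcription factors such as the HOXA genes. Their medians were -0.10, -0.07, -0.03 and 0.06. In lipid metabolism NPC1, which exports cholesterol from lysosomes, was higher (0.28 ± 0.12, and 0.17 without NP-SF 1) and ABCA1, which exports it from cells, lower (-0.62 ± 0.30) at an unadjusted p under 0.05, and ABCA1 was at -0.26 without NP-HF 4. Nutrient transporters had 12 positive and 19 negative values with a median of -0.07, and steroid enzymes 7 and 6 with 0.03. Neither had a member at an unadjusted p under 0.05.

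**Figure D4:**
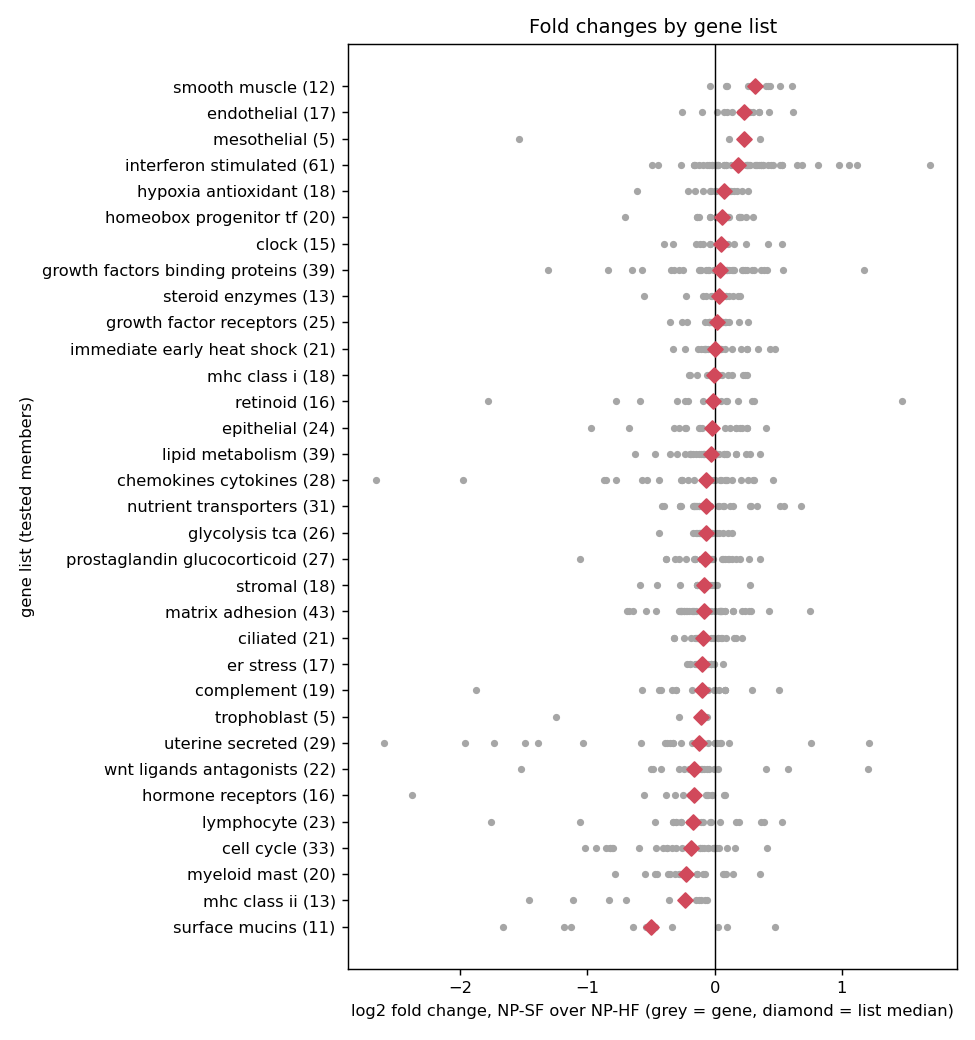
Log2 fold changes of NP-SF over NP-HF by gene list, for lists with at least 5 tested members (number in brackets). Grey points are genes and diamonds list medians, which run from -0.50 for surface mucins to 0.31 for smooth muscle genes.

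The same 2 classes were also compared at day 17 of pregnancy in 10 other animals, which shares no library with the non-pregnant comparison. There edgeR called 0 of 19606 genes (0%), with 1984 (10.1%) at an unadjusted p under 0.05, 1289 of them higher (6.57%) and 695 lower (3.54%) in P-SF. DESeq2 called 95 genes there, and edgeR called 13 without P-HF 1 and 116 without P-SF 5. Across all genes the log2 fold changes of the 2 comparisons had a correlation of -0.024, given as a description since genes are not independent, and 51.0% had the same sign. For the 709 genes at an unadjusted p under 0.05 in non-pregnant animals 340 (48.0%) had the same sign in pregnant animals. Of the 24 genes with the smallest p, 12 in each direction, 15 (62.5%) had the same sign.

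Several leading genes of the non-pregnant comparison had smaller log2 fold changes in pregnancy. They were chosen by their non-pregnant values. Smaller values in other animals can follow from that choice alone, so the contrast shows no difference between the 2 states. OXTR was at 6.49 ± 2.75 CPM (SD, n = 5) in P-HF and 5.49 ± 1.72 CPM (SD, n = 5) in P-SF, a log2 fold change of -0.24 ± 0.49. MUC16 was at 117 ± 53.2 and 97.5 ± 37.6 CPM (-0.26 ± 0.40), UPK1B at -0.47 ± 0.66, MMP7 at 0.48 ± 0.66, AGR2 at 0.29 ± 0.38 and GRP at -0.13 ± 0.28. Among the genes higher in NP-SF, RASGEF1B was at 0.03 ± 0.16 and ABHD1 at -0.34 ± 0.21.

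Whether the class difference itself differed between non-pregnant and pregnant animals was tested as an interaction. It called 1 of 19606 genes (0.0051%), CILP, and 1336 (6.81%) had an unadjusted p under 0.05, 879 with a positive interaction (4.48%) and 457 with a negative one (2.33%). CILP was lower in NP-SF than in NP-HF and higher in P-SF than in P-HF: it was at 3.42 ± 0.567 CPM (SD, n = 5) in P-HF and 5.61 ± 0.737 CPM (SD, n = 5) in P-SF, a log2 fold change of 0.71 ± 0.16, and the interaction was 1.38 ± 0.22 (edgeR adjusted p = 0.0411). The 5 P-SF animals all lay above the 5 P-HF animals. The 5 NP-HF animals all lay above the 5 NP-SF animals. DESeq2 called CILP as well, and limma-voom and the fit without the low-count filter did not. With 1 library left out the call held without NP-HF 3, NP-HF 4, NP-HF 5, P-HF 5 or P-SF 5 and was lost without any of the other 15, while the interaction stayed between 1.26 and 1.48. COL1A1 (1.303 ± 0.337), COL1A2 (1.24 ± 0.32), OXTR (2.14 ± 0.68), MMP7 (3.32 ± 0.93), AGR2 (1.79 ± 0.54) and MUC16 (1.40 ± 0.57) had interactions that were not called. These interactions include the non-pregnant values by which the genes were chosen, which can make them large.

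Some lists lay on opposite sides of 0 in the 2 states. Stromal genes were positive in 3 of 18 in non-pregnant animals and in 17 of 18 in pregnant ones, with medians of -0.08 and 0.40, and matrix and adhesion genes in 17 and 37 of 43, with -0.08 and 0.32. Interferon-stimulated genes were positive in 49 of 61 in non-pregnant animals and in 3 of 61 in pregnant ones, with 0.18 and -0.27. The non-pregnant medians of stromal and interferon-stimulated genes were 0.04 without NP-HF 2 and -0.02 without NP-SF 5. For interferon-stimulated genes the median was 0.08 with both NP-SF 5 and NP-HF 4 left out. Smooth muscle genes were positive in both, in 11 and 12 of 12. These are counts of genes and no test of the lists.

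**Figure D5:**
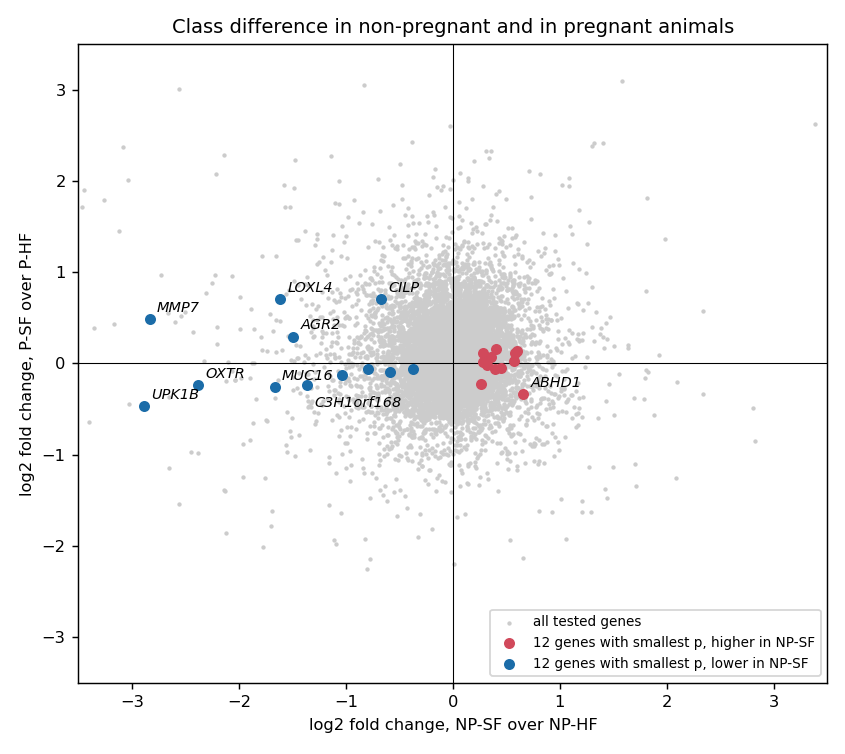
Log2 fold change of NP-SF over NP-HF (horizontal) against that of P-SF over P-HF (vertical) for the tested genes, with the 24 genes of smallest p in non-pregnant animals in colour. On the vertical axis the coloured genes run from -0.47 (UPK1B) to 0.71 (CILP and LOXL4), while on the horizontal axis they reach -2.88 (UPK1B). The coloured genes were chosen by the comparison on the horizontal axis, and a wider spread there can follow from that choice alone. For 15 genes the point lies outside the axes.

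Infertile non-pregnant heifers give a further class in the same state. OXTR was at 24.5, 4.83, 16.3, 29.3 and 19.7 CPM in NP-IF 1 to 5, so that NP-IF 2 and NP-IF 3 lay within the NP-SF range and the other 3 above it. MUC16 was at 58.2, 32.1, 70.8, 144 and 105 CPM, which spans both groups, and UPK1B at 12.8, 2.36, 4.02, 16.8 and 7.51 CPM. AGR2 was at 12.1, 20.3, 18.0, 18.6 and 37.5 CPM, with 4 animals within the NP-SF range, and CILP at 6.11, 4.42, 6.32, 5.88 and 5.64 CPM, with all 5 below every NP-HF animal. ARHGAP26, a GTPase-activating protein with the smallest p after OXTR among genes with a symbol in NP-SF against NP-HF, was at 13.6, 11.96, 15.6, 12.7 and 10.8 CPM in NP-HF, 6.77, 8.14, 8.86, 8.79 and 10.44 CPM in NP-SF (-0.59 ± 0.13) and 15.5, 14.3, 13.6, 13.7 and 14.1 CPM in NP-IF. For this entry of the gene the 5 NP-SF animals lay below all 10 others. Another entry, ARHGAP26-2, was also among the 12 lower genes of smallest p, but its NP-SF and NP-HF groups were not fully apart. In ISG15, NP-IF ran from 7.71 to 44.3 CPM, with 2 animals above 20 CPM beside NP-SF 5 at 62.5 CPM.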

How the data were processed

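Gene expression was measured by RNA sequencing of endometrium from 25 heifers, 1 library each, of which the 10 NP-HF and NP-SF libraries are compared here. Per the labels' protocols RNA was extracted with Isol-RNA reagent and libraries were made at 1 facility with a strand-marking mRNA kit. The authors deposited whole-number read counts per gene, not normalized, for 31651 named genes. A further 1020 empty lines were left out. Per the submitters' processing notes the tools were HISAT2, StringTie and edgeR on genome build UMD3.1. The sources used here give neither their versions nor the use of strand in counting, so overlapping or antisense genes and close copies (IFNT, PAG, BOLA, serum amyloid A genes) have uncertain read assignment. Names were checked in a RefSeq table of another assembly, ARS-UCD2.0, and no coordinates or sequences are given.

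Columns were mapped to samples by title. Animal numbers in the titles are all different, so that replicates are separate animals, numbered in accession order, and p-values measure the spread between them. No 2 libraries of the groups agreed within sampling noise. Genes were filtered with filterByExpr (minimum count 10, minimum total count 15), scaled by TMM and tested in edgeR 4.0.16 (R 4.3.3) with the quasi-likelihood test over all 25 libraries in 5 groups, with Benjamini-Hochberg adjustment and calls at an adjusted p under 0.05. The standard error (SE) was derived from the fold change and its F statistic. CPM were computed with the same scaling, and log2(CPM + 1) was used for list scores. The fit was checked on simulated counts with planted differences in NP-SF. No single animal was set apart in them, so that check does not cover differences carried by 1 animal.

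Named genes were any gene called, and the 12 each way with the smallest p and the 6 each way with the largest fold change at an unadjusted p under 0.05, taken from genes with a symbol whose higher group mean reached 5 CPM and whose fold change had the sign of at least 80% of the 25 pairs of libraries. To these came up to 4 members of each of 36 lists by p and the 10 genes most variable within groups. Unnamed loci (LOC names) were counted only: 4 and 2 would have ranked by p, and 2 and 4 by fold change, among higher and lower genes. A selection of these is described, and 1 gene the rule selects is not reported here. PTGS2, MUC1, MUC4, MUC13, MUC20, CD24 and ST3GAL1, like ESR1, PGR, SERPINA14 and LTF, fall outside the rule and were named after their values were seen. The comparison, the lists and the rule were chosen with earlier results of these data known.

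Alternatives were other size factors, other low-count filters, robust estimation, DESeq2 1.42.0, limma-voom (limma 3.58.1) with and without quality weights, fits to fewer libraries and leaving out each library.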

Additional observations from a re-analysis of the deposited data

Results flagged for a closer look

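Values were marked where 1 animal lay far from the other 4 of its group by Dixon's test at the 95% level, over the library totals, the 36 list scores and the genes named. This marked 21 of 234 groups (9.0%). Chance gives about 1 in 20 for measures not chosen by their values. The genes were named by their values in these libraries, so that rate does not apply to them. The measures are also not independent of each other.

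NP-SF 5 had the most marks. Its score for interferon-stimulated genes, the mean log2(CPM + 1) of the list, was 5.08 beside 4.20 to 4.39 in the other 4 NP-SF animals, with ISG15 at 62.5 CPM, RSAD2 at 116 CPM and MX1 at 431 CPM. In the same animal ACOX3 was low at 60.6 CPM beside 118 to 147 CPM, and CENPF at 0.9185 CPM beside 1.88 to 2.34 CPM.

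NP-HF 3 was high in LTF (448 CPM beside 12.8 to 28.2 CPM), PI3 (40.9 CPM) and CRABP1 (13.9 CPM), and low in ADAMTS1 (140 CPM beside 218 to 248 CPM). NP-HF 2 was high in MMP7 (65.3 CPM beside 3.97 to 8.66 CPM) and low in BOLA-DQA2 (3.53 CPM beside 27.4 to 57.7 CPM). NP-HF 4 was high in PTPRC (57.0 CPM beside 32.6 to 38.0 CPM). NP-HF 1 had the highest score for immediate early and heat shock genes, 6.19 beside 5.29 to 5.54.

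Among the other NP-SF animals, NP-SF 4 was high in CLDN10 (23.8 CPM beside 6.06 to 7.55 CPM) and TFF3 (7.43 CPM) and low in RASL11A (20.6 CPM). NP-SF 3 was high in MUC1 (92.1 CPM beside 41.7 to 44.1 CPM). NP-SF 2 was high in ADAMTS1 (450.0 CPM beside 232 to 269 CPM) and low in MMP7 (1.38 CPM), and NP-SF 1 was low in MKI67 (1.52 CPM beside 2.25 to 2.42 CPM).

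The class difference of CILP differed between non-pregnant and pregnant animals in edgeR's interaction test, with a log2 value of 1.38 ± 0.22 (SE) and an adjusted p of 0.0411, which ran from 5.79e-05 to 0.141 over the alternatives. The P-SF animals were higher than P-HF and the NP-SF animals lower than NP-HF in all 5 of each.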

How the results depend on the processing

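No gene was called in NP-SF against NP-HF under any alternative except DESeq2, which called 4, OXTR (-2.38) and MMP7 (-2.85) among them. Genes at an unadjusted p under 0.05 numbered 709, 1176 without the low-count filter, 1157 without NP-SF 5 and NP-HF 4 together, and 451 (without NP-HF 2) to 1057 (without NP-HF 5) when single libraries were left out. The share of these that were higher in NP-SF was 39.9%, and 33.3% (without NP-SF 2) to 47.6% (without NP-SF 5 and NP-HF 4) over the alternatives. The interaction called 1 gene, 3 with DESeq2, 0 with limma-voom with or without quality weights, 0 without the low-count filter and 0 to 1 when single libraries were left out. P-SF against P-HF called 0 genes, 95 with DESeq2, 24 with limma-voom and quality weights and 0 to 116 when single libraries were left out (13 without P-HF 1, 116 without P-SF 5, otherwise 0). Of 78 genes described, 74 kept their sign under every alternative run. Most were picked by p or fold in these same libraries, which makes a kept sign likely, so this count is no test. The 4 that changed sign fall outside the rule for named genes. ESR1 (-0.02) went to 0.0373 without NP-HF 3, 0.061 without NP-HF 4, 0.1153 without NP-SF 1, 0.046 without NP-SF 3 and 0.0416 without NP-SF 5 and NP-HF 4, with single omissions between -0.1223 and 0.1153. CD24 (0.10) went to -0.0214 with limma-voom, -0.0065 with quality weights, -0.0808 without NP-SF 5 and NP-HF 4, and -0.0232 without NP-HF 1 and -0.2447 without NP-SF 4, with single omissions up to 0.2927. MUC4 (0.48) lay between -0.0382 (without NP-SF 4) and 1.1954. ST3GAL1 (0.03) lay between -0.107 (without NP-SF 2) and 0.1645 (without NP-SF 5 and NP-HF 4), and was negative also without NP-HF 3 (-0.0704) and NP-HF 5 (-0.0136). Of 36 list medians 17 changed sign when some single library was left out and 19 did not. No paired analysis was possible because no animal or replicate number in the titles is shared between groups. At 20350807 to 25729368 reads genes of low level were bounded least.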
